A study of Homo sapiens with 3 samples.

Results

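A set of 50 genes of the cellular response to foreign RNA and to interferon was examined in HCT116 cells, a colon cancer line, after transfection with small interfering RNAs (siRNAs). The genes were chosen by name: 6 sensors and adaptors of RNA sensing, 6 transcription factors, and 38 effectors that interferon is known to induce. The cells had received control siRNA, which is non-targeting, or 1 of 2 siRNAs against *HOXA5* short RNA, siRNA #7 or siRNA #8. Both *HOXA5* groups are labelled as silenced for *HOXA5* short RNA and the third as control. All cells were harvested after 48 h, and the control array serves both comparisons. The deposited files carry other siRNA numbers than the labels, so which array is siRNA #7 and which is siRNA #8 rests on the labels. Each condition was represented by 1 array of an Agilent SurePrint G3 Human design, hybridised with Cy3-labelled cRNA made from 400 ng of total RNA. No untransfected cells or cells with transfection reagent alone were among the samples analysed here, so every ratio below compares 1 siRNA with another.

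Cells recognise foreign double-stranded RNA in the cytoplasm through RIG-I (*RIGI*) and MDA5 (*IFIH1*), which signal through the adaptor MAVS and the kinase TBK1. TBK1 activates IRF3 and IRF7, which switch on interferon genes. Secreted interferon binds its receptors and activates STAT2 together with IRF9, and this complex binds interferon-stimulated response elements in the promoters of effector genes. Short synthetic RNA duplexes are known to engage this system in some cells, depending on their sequence, length, ends and the delivery method. The comparison of each *HOXA5* short RNA siRNA with control siRNA therefore describes how far these genes differed between transfections with different duplexes.

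Both siRNA sequences lie at the junction of the first and last exon of *HOXA5* short RNA, an RNA transcribed from the *HOXA5* locus. They are shown because the study listed them as separate reagents and the silencing design rests on them. Capitals mark the stretch that both siRNAs contain, in the strand that the study listed, 5′ to 3′. Which strand of the duplex this is was not given.
siRNA #7: gagaAACUGAAAGACAACAUA
siRNA #8: AACUGAAAGACAACAUAggcg

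Each sequence is 21 nt long, and 17 nt are shared, at positions 5 to 21 of siRNA #7 and 1 to 17 of siRNA #8. The duplexes thus differ by a shift along 1 target, and they are not independent in sequence. siRNA #7 had 7 G or C bases and 2 U bases, and siRNA #8 had 9 G or C bases and 2 U bases. The sequence of control siRNA was not used here.

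The probe annotated to *HOXA5* was read first. Control siRNA gave an intensity of 84.9 there, siRNA #7 gave 52.6 and siRNA #8 gave 58.5. Scaled log2 ratios against the control were -0.36 ± 0.26 for siRNA #7 and -0.23 ± 0.25 for siRNA #8. Whether this probe detects *HOXA5* short RNA was not tested, so these ratios do not measure its silencing. The study monitored silencing by quantitative PCR and reported a selective knockdown of this RNA by either siRNA, with *HOXA5* mRNA unaffected. Here and below, the error of a ratio is the spot-to-spot SD, taken from probes printed 10 times on the same array. For a probe with several spots on an array it is divided by the square root of their number, so *HERC5*, printed 10 times, has the error of a mean of 10 spots. It covers the printing and reading of spots and no spread between cultures, since there was 1 array per condition. No gene was therefore tested in these comparisons, and the number of arrays limits the precision of every value.

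The interferon-stimulated response element was searched as GAAA, any 2 bases and GAAA again, on either strand, in RefSeq promoters of GRCh38.p14, each 300 bases long, from 250 bases before the annotated start to 50 bases after it. Of the 50 genes, 38 had a promoter in the table, and 23 of these (60.5%) held the motif. The share was 3.65% of all 27305 promoters, 1 per gene (996) and 2.49% of the 9513 promoters of genes measured on all arrays (237). Among effectors 21 of 30 promoters (70%) held it, among sensors and adaptors 2 of 5, and among transcription factors 0 of 3. Overlapping matches were allowed, and a match is a stretch of letters, not a site shown to be used. The windows below, 30 bases each with the motif in capitals, are shown because their genes had ratios on either side of control siRNA. The first 4 genes (*IFITM1*, *BST2*, *IFIT1* and *ISG15*) had ratios above 0 with both siRNAs, and the last 3 (*OAS3*, *DTX3L* and *TAP1*) had ratios below 0 with both, *DTX3L* turning positive for siRNA #7 with normexp.
IFITM1, chr11:314024-314053 (+): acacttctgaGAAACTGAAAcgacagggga
BST2, chr19:17405741-17405770 (-): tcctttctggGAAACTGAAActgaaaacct
IFIT1, chr10:89392497-89392526 (+), motif on the opposite strand: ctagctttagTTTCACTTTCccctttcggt
ISG15, chr1:1013374-1013403 (+): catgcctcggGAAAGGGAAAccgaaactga
OAS3, chr12:112938321-112938350 (+): agaaagaaacGAAACTGAAAgcagggaatt
DTX3L, chr3:122564322-122564351 (+): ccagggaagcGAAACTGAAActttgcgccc
TAP1, chr6:32853819-32853848 (-), motif on the opposite strand: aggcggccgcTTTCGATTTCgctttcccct

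Counted from the annotated start as 0, the motif began at -6 in *IFITM1* and at -6 in *DTX3L*, with the same 10 letters in both. *IFITM1* had log2 ratios of 0.78 and 1.02 to control siRNA with siRNA #7 and siRNA #8, and *DTX3L* had ratios of -0.26 and -0.69. The *DTX3L* ratios were within 2 spot-to-spot SDs, and with normexp background correction they were 0.02 and -0.07. Normexp as used here adds 50 to every spot signal, which draws the ratios of dim probes toward 0. The same 10 letters thus stood at the same distance from the start in genes with different ratios. The promoters were not alike in the motif otherwise, since *IFITM1* held a further match, beginning at -40, and *DTX3L* held no other.

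Of the 50 genes, 49 had a probe matched through its transcript accession, and *IFI27* had none. For 35 genes a probe was well above background on all 3 arrays. Another 3 genes (*TLR3*, *MX1* and *IFI44*) were above background on some arrays, and 11 genes were above it on no array. The 11 were *IRF2*, *OAS1*, *OAS2*, *IFIT3*, *HERC6*, *MX2*, *TRIM22*, *SAMD9*, *SAMD9L*, *IFI44L* and *XAF1*. Several of these, among them *OAS1*, *MX2* and *IFI44L*, belong to the genes used most often as readouts of interferon. The brightest passing probe stands for a gene below, and its scaled intensity is the intensity divided by the 75th percentile of the array, which was 52.8 for control siRNA, 42.1 for siRNA #7 and 42.8 for siRNA #8. Each array held 58717 gene spots, of which none was saturated. Scaled intensities are compared between arrays only, not between genes.

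**Figure D1:**
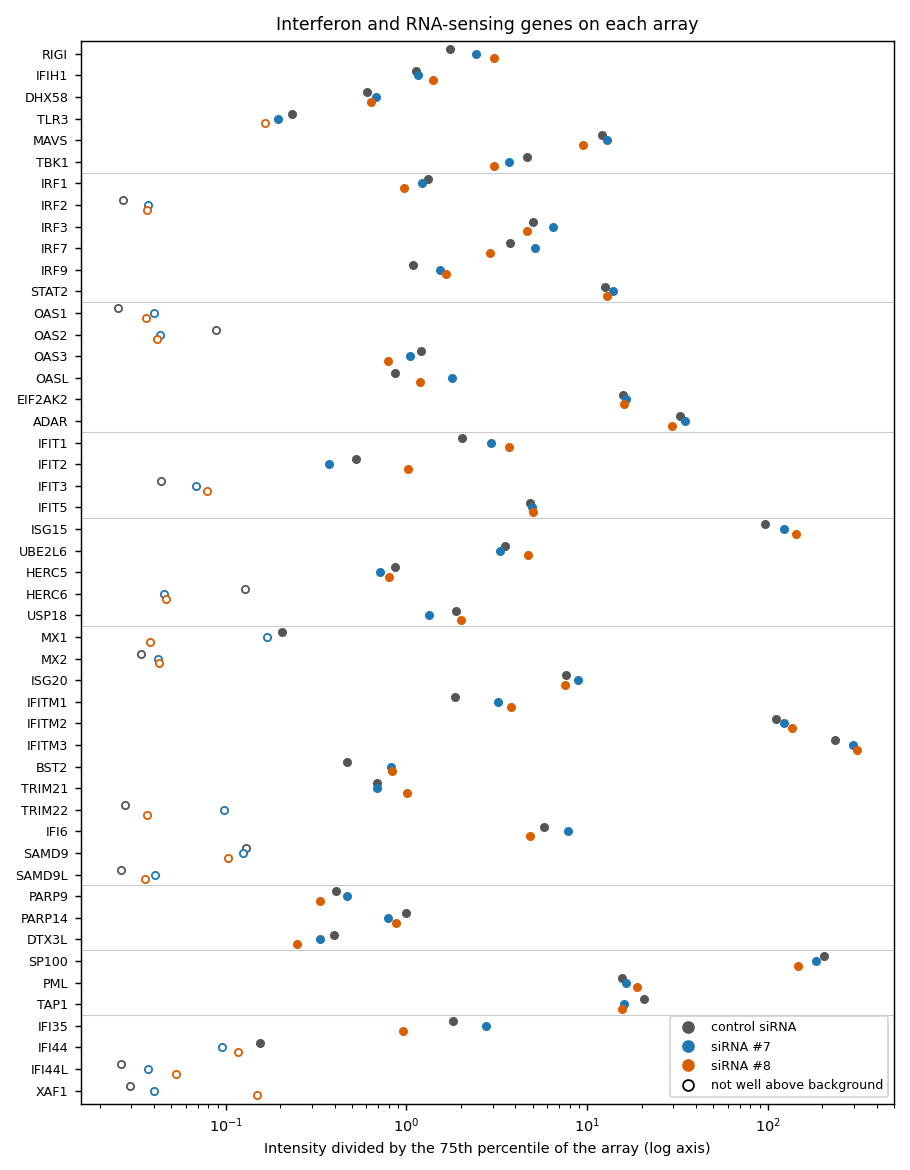
Scaled intensity of the brightest probe of each of 49 genes on the 3 arrays (intensity divided by the 75th percentile of the array, log axis), 1 point per array, grouped from sensors at the top to other effectors at the bottom. Open points were not well above background. Most points of a gene lie close together, *IFIT2*, *IFI35*, *OASL* and *IFITM1* are spread more widely, and open points fill the low end.

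Few of the 35 measured genes differed by 2-fold from control siRNA. With siRNA #7, 1 gene (*OASL*) was at least 2-fold higher (2.86%, against 2.04% of all 12031 genes) and 0 were at least 2-fold lower (background 1.72%). With siRNA #8, 1 gene (*IFITM1*) was at least 2-fold higher (2.86%, against 1.95%) and 0 were at least 2-fold lower (background 3.03%). These shares were near the background. In RNA from whole cultures, fewer cells expressing a gene and less RNA per cell cannot be told apart. With 35 genes, 1 gene makes 2.86%, so shares of this kind move in coarse steps.

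At 1.5-fold, 4 genes were higher with siRNA #7 (11.4%, against 7.51% of all genes), namely *OASL*, *IFITM1*, *BST2* and *IFI35*, and 0 were lower (background 6.95%). With siRNA #8, 7 genes were higher (20%, against 7.79%), namely *RIGI*, *IRF9*, *IFIT1*, *IFIT2*, *ISG15*, *IFITM1* and *BST2*. With the same siRNA 4 genes were lower (11.4%, against 10.2%), namely *TBK1*, *OAS3*, *DTX3L* and *IFI35*. At this threshold the higher side with siRNA #8 was the count farthest above its background.

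Ratios larger than 2 spot-to-spot SDs were found for 16 genes with siRNA #7 (45.7%, against 30.1% of all genes). Of these 12 were higher (34.3%, against 15.2%) and 4 lower (11.4%, against 14.9%). With siRNA #8 there were 17 such genes (48.6%, against 31.9%), 10 higher (28.6%, against 14.9%) and 7 lower (20%, against 17.1%). Many genes of all kinds passed this rule, since it takes no account of differences between cultures.

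The median log2 ratio of the 35 genes was 0.086 with siRNA #7 (range -0.50 to 1.04), beside 0.013 for all genes. With siRNA #8 it was 0.041 (range -0.91 to 1.02), beside 0.0071. Ratios were above 0 for 24 of 35 genes with siRNA #7 (68.6%, against 51.4% of all genes) and for 19 of 35 with siRNA #8 (54.3%, against 50.8%). Scaling to the E1A spike-in RNAs in place of the 75th percentile moved the median of all genes to -0.31 and -0.23, and the medians of the 35 genes to -0.24 and -0.20. The set lay within 0.10 log2 units of the background median. Both scalings subtract 1 constant per array, so this distance could not differ between them.

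**Figure D2:**
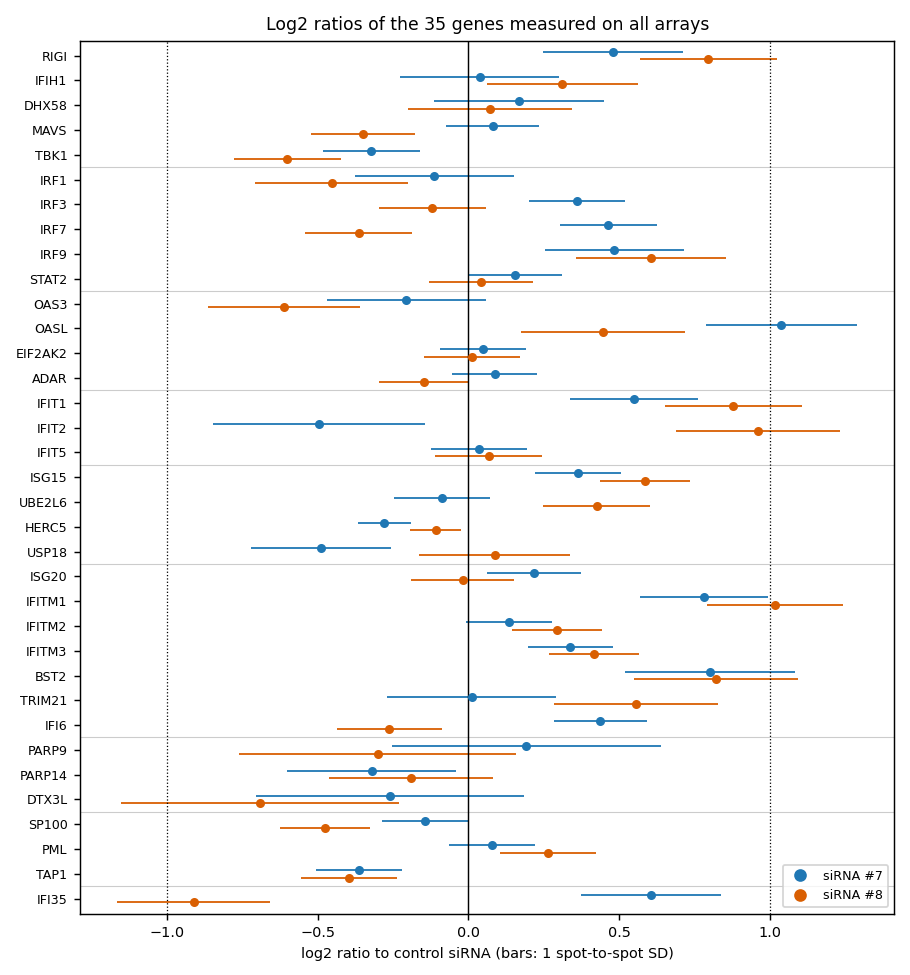
Log2 ratio to control siRNA of the 35 genes measured on all arrays, with siRNA #7 and siRNA #8. Bars are 1 spot-to-spot SD, dotted lines mark 2-fold, and 1 control array serves both ratios. Genes right of 0 with both siRNAs include *IFITM1*, *BST2*, *OASL*, *IFIT1*, *RIGI*, *IRF9* and *ISG15*. Genes left of 0 with both include *TBK1*, *OAS3*, *TAP1*, *IRF1*, *HERC5*, *PARP14* and *DTX3L* (0.02 for siRNA #7 with normexp).

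Among the sensors and adaptors, the RNA helicase gene *RIGI* had the highest ratios, while the kinase gene *TBK1* had the lowest. The scaled intensity of *RIGI* was 1.75 for control siRNA, 2.44 for siRNA #7 and 3.03 for siRNA #8. The ratios were 0.48 ± 0.23 and 0.80 ± 0.23, both siRNAs being above control siRNA. A second, dimmer probe of *RIGI* read 0.334, 0.262 and 0.464, for log2 ratios of -0.35 ± 0.45 and 0.47 ± 0.46. The higher level with siRNA #8 was thus seen on both probes, and the ratio with siRNA #7 differed in sign between them.

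*IFIH1*, which encodes the sensor of longer double-stranded RNA, read 1.13, 1.16 and 1.40 on the same arrays in that order. The log2 ratios were 0.04 ± 0.26 and 0.31 ± 0.25, and the first turned negative under 4 of 8 alternatives, spike-in scaling included. The spots printed next to it had median ratios of 0.32 and 0.31, and with these subtracted the ratio of siRNA #8 came to the low end of its range, near 0. *DHX58*, which encodes LGP2, a regulator of both sensors, read 0.604, 0.678 and 0.634. Its log2 ratios of 0.17 ± 0.28 and 0.07 ± 0.27 were within the spot-to-spot error, and both turned negative with spike-in scaling.

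*MAVS*, which encodes the mitochondrial adaptor downstream of both sensors, was the best covered gene, with 7 passing probes. Its brightest probe read 12.1, 12.8 and 9.52, a log2 ratio of 0.08 ± 0.15 for siRNA #7 and of -0.35 ± 0.17 for siRNA #8. All 7 probes were below control siRNA with siRNA #8 (-0.69 to -0.16), and with siRNA #7 4 were above and 3 below it (-0.23 to 0.13). *MAVS* was therefore lower with siRNA #8 on every probe, and it had no common direction with siRNA #7, where the brightest probe's ratio turned to -0.25 with spike-in scaling.

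*TBK1*, which encodes the kinase that activates IRF3, read 4.64 for control siRNA, 3.71 for siRNA #7 and 3.06 for siRNA #8. The log2 ratios were -0.32 ± 0.16 and -0.60 ± 0.18, so control siRNA had the highest value. Neither ratio changed sign under any of 8 alternatives, all of which reuse the same arrays. Here and below, not all 8 could change a sign. The deposited log2 values nearly repeat the main ratio. The mean of passing probes equals it for a gene with no further passing probe, such as *TBK1*. *TLR3*, the endosomal receptor of double-stranded RNA, was dim, with intensities of 12.3, 8.19 and 7.04. With siRNA #8 it was not well above background, and the signals as measured bounded the control siRNA level at 1.31-fold higher or more. That bound is smaller than the spot-to-spot SD of the ratio, 0.46 log2 units. Over the 5 sensors and adaptors measured on all arrays, the median log2 ratio was 0.081 with siRNA #7 (4 above 0, 1 below) and 0.071 with siRNA #8 (3 above, 2 below). With spike-in scaling these medians turned to -0.25 and -0.17, and with *TLR3* included the median with siRNA #8 turned to -0.14.

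Among the transcription factors, *IRF9* was higher with both siRNAs, and *IRF7* lay on different sides of control siRNA with the 2 siRNAs. *IRF3* was higher with siRNA #7 and within the spot-to-spot error of control siRNA with siRNA #8. *IRF9*, which encodes the DNA-binding part of the complex that answers type I interferon, read 1.09, 1.53 and 1.66. Its log2 ratios were 0.48 ± 0.23 and 0.61 ± 0.25. *STAT2*, the partner of IRF9 in that complex, read 12.5, 13.9 and 12.9, with log2 ratios of 0.15 ± 0.15 and 0.04 ± 0.17. *STAT2* was thus within the error where *IRF9* was above 2 spot-to-spot SDs, and both *STAT2* ratios turned negative with spike-in scaling.

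*IRF7*, an interferon-induced regulator of interferon genes, read 3.73 for control siRNA, 5.15 for siRNA #7 and 2.90 for siRNA #8. Log2 ratios were 0.46 ± 0.16 and -0.36 ± 0.18, which placed control siRNA between the siRNAs. *IRF3*, which is present before stimulation and is activated by phosphorylation, read 5.02, 6.45 and 4.62. Its log2 ratios were 0.36 ± 0.16 and -0.12 ± 0.18, and a second probe gave 0.38 ± 0.16 and -0.03 ± 0.18. On the brightest probes the *IRF3* and *IRF7* ratios kept their sign under 8 alternatives, spike-in scaling included. *IRF1*, a factor induced by interferon gamma, read 1.32, 1.22 and 0.964, for log2 ratios of -0.11 ± 0.26 and -0.45 ± 0.25, within 2 spot-to-spot SDs. *IRF2*, which encodes a repressor of the same promoters, stayed near background on all arrays.

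Of the enzymes that bind double-stranded RNA, *OASL* and *OAS3* lay on opposite sides of control siRNA. *OASL*, an OAS relative that lacks synthetase activity and enhances RIG-I signalling, read 0.869 for control siRNA, 1.79 for siRNA #7 and 1.18 for siRNA #8. The ratios, 1.04 ± 0.25 and 0.45 ± 0.27 in log2 units, were both above 0. The spots around this probe had median ratios of 0.22 and -0.18, and with these subtracted the ratios became 0.71 and 0.79. The order of the siRNAs for *OASL* therefore depended on the position on the array, while both stayed above control siRNA under all 8 alternatives.

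*OAS3*, an activator of RNase L, read 1.21, 1.05 and 0.789, for log2 ratios of -0.21 ± 0.26 and -0.61 ± 0.25. *EIF2AK2*, which encodes the kinase PKR, read 15.8, 16.4 and 16.0, for log2 ratios of 0.05 ± 0.14 and 0.01 ± 0.16. *ADAR*, which edits double-stranded RNA, read 32.6, 34.6 and 29.4, for log2 ratios of 0.09 ± 0.14, which turned to -0.24 with spike-in scaling, and -0.15 ± 0.15. The ratios of the PKR gene lay within the spot-to-spot error, and their sign changed under 4 of 8 alternatives with siRNA #7 and 5 of 8 with siRNA #8. *OAS1* and *OAS2*, the other synthetases listed, had intensities of at most 4.65, too dim to be called above background.

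The IFIT family, whose proteins bind viral RNA and block its translation, held both a gene that was higher with both siRNAs and a gene that went opposite ways. *IFIT1*, which binds RNA with an unmethylated cap, read 2.02 for control siRNA, 2.95 for siRNA #7 and 3.71 for siRNA #8, for log2 ratios of 0.55 ± 0.21 and 0.88 ± 0.23. *IFIT2*, a partner of IFIT1, read 0.523, 0.371 and 1.02, for log2 ratios of -0.50 ± 0.35 and 0.96 ± 0.27. For *IFIT2* control siRNA thus lay between the siRNAs, and only the value with siRNA #8 was beyond 2 spot-to-spot SDs. *IFIT5* read 4.81, 4.93 and 5.04, with log2 ratios of 0.04 ± 0.16 and 0.07 ± 0.18 that turned negative with spike-in scaling. *IFIT3*, which stabilises IFIT1, had intensities of 2.31, 2.88 and 3.37 and was not called above background.

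*ISG15*, which encodes a ubiquitin-like protein conjugated to other proteins after interferon, was higher with both siRNAs. It read 95.9 for control siRNA, 123 for siRNA #7 and 144 for siRNA #8. The log2 ratios were 0.36 ± 0.14 and 0.59 ± 0.15, both above 2 spot-to-spot SDs, and with spike-in scaling they were 0.04 and 0.35. The conjugating enzyme gene *UBE2L6* had log2 ratios of -0.09 ± 0.16 and 0.42 ± 0.18, and the protease gene *USP18*, whose product removes ISG15, had -0.49 ± 0.23 and 0.09 ± 0.25. Of the 4 measured genes of this system 1 was above control siRNA with siRNA #7 (median -0.18) and 3 with siRNA #8 (median 0.26), *USP18* turning negative under 2 alternatives.

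*HERC5*, which encodes the ligase that attaches ISG15, was printed 10 times, so its spread was measured on its own spots. Its intensity was 45.8 ± 3.48 for control siRNA, 30.1 ± 3.41 for siRNA #7 and 34.4 ± 4.50 for siRNA #8 (SD over 10 spots of 1 array). On the scaled log2 scale its level was -0.21 ± 0.11, -0.49 ± 0.16 and -0.32 ± 0.19. The mean level of the ligase gene was thus lower with siRNA #7 than with control siRNA, at a log2 ratio of -0.28 ± 0.09, while *ISG15* itself was higher. Single spots overlapped, control siRNA reaching down to -0.40 and siRNA #7 up to -0.22. With normexp, whose offset draws the ratios of dim probes toward 0, the *HERC5* ratio with siRNA #7 was -0.09.

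Of the genes that restrict virus entry, release or replication, 7 of 12 were measured on all arrays. All 7 were above control siRNA with siRNA #7 (median log2 ratio 0.34, against 51.4% of all genes above 0), and 5 were with siRNA #8 (median 0.42, against 50.8%). With spike-in scaling *ISG20*, *IFITM2* and *TRIM21* turned negative with siRNA #7. *IFITM1*, which encodes a membrane protein that blocks entry of viruses, read 1.86 for control siRNA, 3.20 for siRNA #7 and 3.77 for siRNA #8. That made log2 ratios of 0.78 ± 0.21 and 1.02 ± 0.23, and a second probe gave 1.13 ± 0.39 and 1.29 ± 0.38. Both probes placed control siRNA lowest, and the ratios of the gene kept their sign under 8 alternatives, where they ranged from 0.45 to 0.96 with siRNA #7 and from 0.64 to 1.15 with siRNA #8.

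*IFITM3*, which acts in endosomes, read 235, 297 and 313, for log2 ratios of 0.34 ± 0.14 and 0.42 ± 0.15. With spike-in scaling these became 0.01 and 0.18. *IFITM2* read 111, 122 and 136, for log2 ratios of 0.13 ± 0.14 and 0.29 ± 0.15. *IFITM1*, *IFITM2* and *IFITM3* are related neighbours on chromosome 11, and how far their probes share transcripts was not tested.

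*BST2*, which encodes tetherin, a protein that holds budding virus at the cell surface, read 0.471 for control siRNA, 0.821 for siRNA #7 and 0.832 for siRNA #8. Log2 ratios were 0.80 ± 0.28 and 0.82 ± 0.27, and the other passing probe gave 0.56 ± 0.45 and 0.79 ± 0.46. Both siRNAs were above control siRNA to nearly the same degree. *IFI6*, which protects against flaviviruses at the endoplasmic reticulum, had log2 ratios of opposite sign, 0.44 ± 0.15 and -0.26 ± 0.17. The second was within 2 spot-to-spot SDs. *TRIM21*, an antibody receptor in the cytoplasm, had 0.01 ± 0.28 and 0.56 ± 0.27, so it differed from control siRNA beyond 2 spot-to-spot SDs with siRNA #8 alone.

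*MX1*, which encodes a GTPase that blocks influenza virus and is a common marker of interferon action, was well above background with control siRNA only. Its intensities were 10.7 for control siRNA, 7.10 for siRNA #7 and 1.62 for siRNA #8. Taken as measured, the signals bounded the control siRNA level at 1.16-fold above siRNA #7 or more, and at 1.14-fold above siRNA #8 or more. Both bounds are smaller than the spot-to-spot SD of these ratios (0.45 and 0.46 log2 units), so they do not establish a difference. These bounds set the level with control siRNA against the dimmest signals that were well above background on the other array. *IFI44*, a further induced gene, was also above background with control siRNA only (8.14, 4.03 and 4.99), too dim for a bound.

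The genes of the PARP9 group, which act together in interferon signalling and repair of DNA, were all below control siRNA with siRNA #8. *PARP9* had log2 ratios of 0.19 ± 0.45, which turned to -0.13 with spike-in scaling, and -0.30 ± 0.46, and *PARP14* had -0.32 ± 0.28 and -0.19 ± 0.27. *DTX3L*, which encodes the ubiquitin ligase partner of PARP9, read 0.400, 0.334 and 0.248, for log2 ratios of -0.26 ± 0.45 and -0.69 ± 0.46. These probes were dim, and none of their ratios exceeded 2 spot-to-spot SDs.

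*TAP1*, which carries peptides into the endoplasmic reticulum for antigen presentation, read 20.6 for control siRNA, 16.0 for siRNA #7 and 15.7 for siRNA #8. Ratios of -0.36 ± 0.14 and -0.40 ± 0.16 were below 0 under all 8 alternatives. The genes of its direct partners, which were not in the set, were lower too. *TAP2*, the other subunit of the transporter, had log2 ratios of -0.42 and -1.56, and *TAPBP*, which encodes tapasin, had -0.36 and -1.48. All 3 of these antigen transport genes were below control siRNA with both siRNAs, and *TAP2* and *TAPBP* were past 2-fold with siRNA #8. These 2 were picked from a longer list after their values were seen, and no error is given for them. On that list *B2M* (0.04 and 0.12), *HLA-B* (0.23 and 0.03), *HLA-C* (0.23 and 0.13) and *HLA-E* (0.24 and 0.24) were above 0 with both siRNAs. *PSMB9* (0.08 and -0.71) and *HLA-F* (0.28 and -0.15) went both ways. *PML*, which builds nuclear bodies, had log2 ratios of 0.08 ± 0.14 and 0.26 ± 0.16, the first turning negative with spike-in scaling.

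*SP100*, another nuclear body gene, gave different answers on its probes. The brightest read 204, 185 and 147, for log2 ratios of -0.14 ± 0.14 and -0.48 ± 0.15. The dimmer probes gave 0.18 ± 0.28 and 0.83 ± 0.45 with siRNA #7, and 0.39 ± 0.27 and 0.42 ± 0.46 with siRNA #8. With the mean of its probes the gene had ratios of 0.29 and 0.11, so no direction is given for it.

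**Figure D3:**
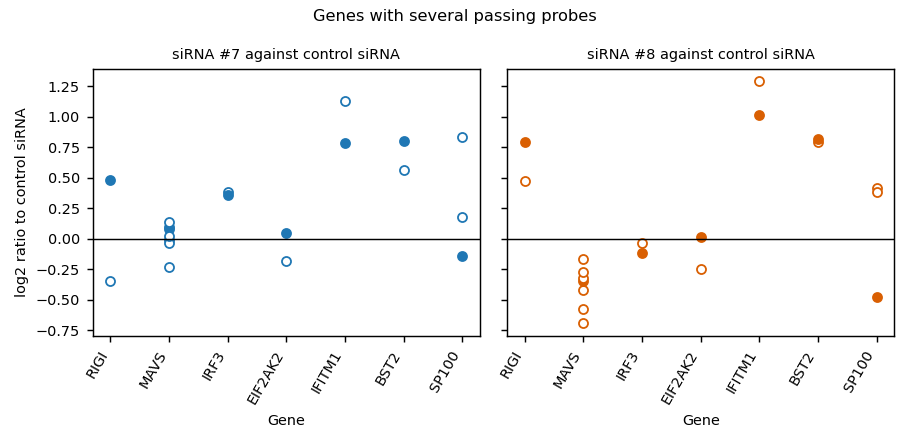
Log2 ratio to control siRNA for each passing probe of the 7 genes with several, siRNA #7 left and siRNA #8 right, 1 point per probe, the brightest filled. Probes of *IFITM1*, *BST2* and *IRF3* lie together, the 7 probes of *MAVS* lie below 0 with siRNA #8, and probes of *RIGI* (siRNA #7) and *SP100* (both siRNAs) lie on both sides of 0.

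*IFI35*, an interferon-induced leucine zipper gene, differed between the siRNAs in the direction opposite to *IFIT2*. Its scaled intensity was 1.81 for control siRNA, 2.75 for siRNA #7 and 0.960 for siRNA #8. The log2 ratios were 0.61 ± 0.23 and -0.91 ± 0.25, on either side of control siRNA, and neither changed sign under 8 alternatives.

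The siRNAs were then compared directly, siRNA #8 over siRNA #7, which leaves the control array out. At 2-fold, 1 gene (*IFIT2*) was higher and 1 gene (*IFI35*) was lower with siRNA #8, together 5.71% of the 35 genes against 5.63% of all genes (2.29% higher and 3.33% lower). The log2 ratio was 1.46 ± 0.33 for *IFIT2* and -1.52 ± 0.22 for *IFI35*. Beyond 2 spot-to-spot SDs there were 13 genes (37.1%, against 37.5%). With siRNA #8, 6 were higher (17.1%, against 17.4%) and 7 lower (20%, against 20.1%). At 1.5-fold 1 gene was higher (2.86%, against 8.91%) and 4 were lower (11.4%, against 11.5%), the latter being *IRF7*, *OASL*, *IFI6* and *IFI35*. The median was -0.032, with 17 genes above 0 and 18 below. In number the differences between the 2 siRNAs were thus close to those of all genes.

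By role, all 4 measured genes of the ISG15 system were higher with siRNA #8 than with siRNA #7 (median 0.37), from *HERC5* (0.17 ± 0.08, the error of a mean of 10 spots) to *USP18* (0.58 ± 0.21). Over all genes 49.0% were above 0 in this comparison, with a median of -0.0099. All 4 enzymes of double-stranded RNA were lower with siRNA #8 (median -0.32), among them *OASL* (-0.59 ± 0.22) and *EIF2AK2* (-0.04 ± 0.16). *OASL* turned to 0.08 when the median deviation of neighbouring spots was subtracted on each array, and *EIF2AK2* turned positive under 3 alternatives. Among transcription factors 4 of 5 were lower with siRNA #8, with *IRF7* at -0.83 ± 0.16 and *IRF3* at -0.48 ± 0.16, and *IRF9* was the 1 above 0 (0.12 ± 0.21).

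**Figure D4:**
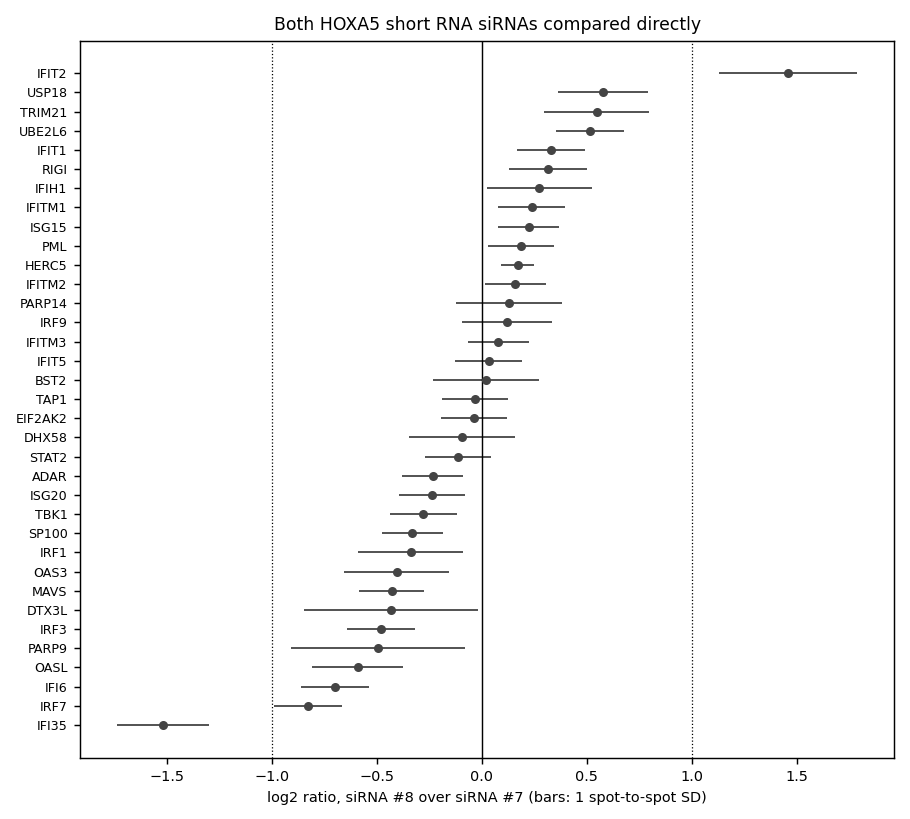
Log2 ratio of siRNA #8 over siRNA #7 for the 35 genes, ordered by value, with 1 spot-to-spot SD as bars and 2-fold as dotted lines. *IFIT2* at the top and *IFI35* at the bottom lie beyond 2-fold, and the other 33 lie between the lines.

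Other genes of the pathway were counted from a list of 69, of which 42 were measured on all arrays. Their median log2 ratio was -0.078 with siRNA #7 (17 above 0, 25 below) and 0.059 with siRNA #8 (24 above, 18 below). *TAP2* and *TAPBP*, described above, were the 2 of 42 genes at least 2-fold lower, both with siRNA #8, where 3.03% of all genes were. Of 7 interferon genes on the list, 0 were well above background on all arrays, 1 (*IFNL2*) was on some arrays, 5 were on none, and 1 had no probe. All 6 receptor subunits for interferon were measured. Their log2 ratios were below 0 for 6 with siRNA #7 (-0.74 to -0.03) and for 4 with siRNA #8 (-0.42 to 0.62), the highest being *IFNLR1*, a subunit of the receptor for interferon lambda. Of all genes, 51.4% were above 0 with siRNA #7 and 50.8% with siRNA #8. No error is given for the ratios of this list.

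Cell type markers were checked against the label. Of 9 markers of a colon epithelial line 8 were measured on all arrays, *VIL1* being the exception. Of 8 immune cell markers 1 (*CD68*) was measured on all arrays, 1 (*CD14*) on some and 6 on none, *PTPRC* among them. Of 5 markers of fibroblasts and endothelium 1 was measured on all arrays, 1 on some and 3 on none. The median log2 ratio of the epithelial markers was 0.29 with siRNA #7 (8 of 8 above 0, 0.04 to 0.46, against 51.4% of all genes). With siRNA #8 it was 0.12 (6 of 8 above 0, -0.52 to 0.63, against 50.8%). *CD68* had log2 ratios of -0.38 and -0.49, and the measured fibroblast marker *COL1A1* had -0.44 and -0.12. The part of these markers in the ratios above was not tested.

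The response element was set against the ratios last. Promoters were matched for 27 of the 35 measured genes. The 16 genes with the motif had median log2 ratios of 0.04 with siRNA #7 (11 above 0) and 0.04 with siRNA #8 (9 above 0), and ranged from -0.36 to 0.80 and from -0.69 to 1.02. The 11 genes without it had medians of 0.086 (7 above 0) and -0.30 (4 above 0). Genes with the motif thus lay on both sides of control siRNA, *IFITM1* and *TAP1* among them. The motif stood in 7 of 11 promoters of genes without a measured level on all arrays (63.6%) and in 16 of 27 with one (59.3%).

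**Figure D5:**
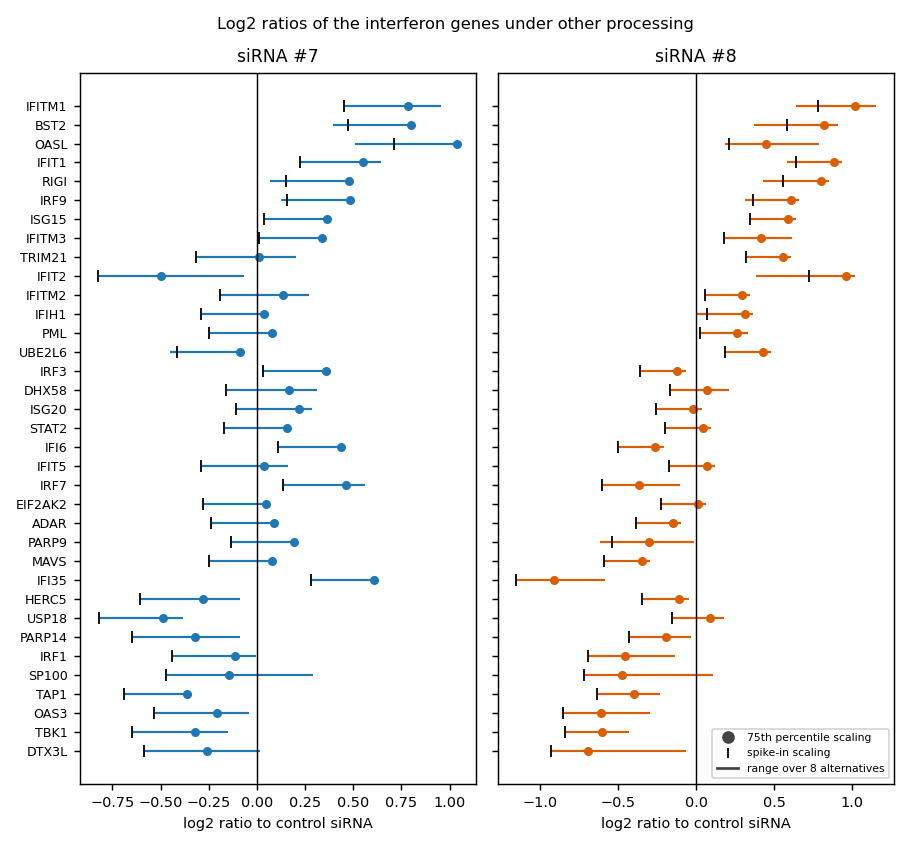
Log2 ratio to control siRNA of the 35 genes, siRNA #7 left and siRNA #8 right. Points are the values with 75th percentile scaling, ticks those with spike-in scaling, and lines the range over 8 alternatives. The lines of *IFITM1*, *BST2*, *OASL*, *IFIT1*, *RIGI*, *IRF9*, *ISG15* and *IFITM3* stay right of 0 in both panels. Those of *TBK1*, *OAS3*, *TAP1*, *IRF1*, *HERC5* and *PARP14* stay left of it in both. Some end close to 0, such as *IFITM3* (0.01) and *IRF1* (-0.006) with siRNA #7.

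When both *HOXA5* short RNA siRNAs were taken as 2 replicates against the control array, limma called 0 of the 35 genes (lowest adjusted p = 0.9996) and 1 of 18121 probes at an adjusted p of 0.05. At an unadjusted p of 0.05, limma passed 2 of the 35 genes (5.71%, *IFITM1* and *BST2*), against 3.56% of all probes (646). This fit takes different siRNAs as replicates and has 1 residual degree of freedom, so its count of 0 says little about genes that differ by 2-fold or less.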

How the data were processed

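Gene expression was measured in HCT116 cells with control siRNA, siRNA #7 or siRNA #8, with 1 array per condition. The authors scanned 1-colour Agilent arrays, and the deposited intensity of each spot came from Agilent Feature Extraction (11.5.1.1 per the file headers), background-subtracted and not scaled between arrays. A second deposited table gives log2 values of 21189 probes. Regressed on log2 intensities, its between-array differences had slope 1.00 and shifts of -0.33 and -0.30, equal to the 75th percentile's, and each probe was median-centred. It served as an alternative. The methods name a filter on the 20th percentile and flags, and no normalization.

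Levels were log2 intensity minus that of the 75th percentile of the gene probes of each array. Outlier-flagged spots (409, 413 and 313) were removed before averaging the copies of each probe. A probe passed if it reached the 20th percentile on at least 2 arrays and was well above background, in at least 50% of its spots, on all 3 arrays (18121 of 50593 probes). Symbols came from RefSeq accessions (30000 probes named). Probe coordinates are not given, the design's build being older. The spot-to-spot SD was pooled within 6 ranges of signal over 620, 603 and 614 probes printed 10 times (overall 0.18, 0.15 and 0.17), and combined over both arrays of a ratio. A bound used the lowest signal well above background on the dim array. Neighbouring spots lay within 3 rows and 3 columns.

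The genes and lists were chosen with earlier results of these data known. Named genes were the sensors, adaptors and transcription factors, genes past 2-fold, the 4 highest and 4 lowest by the mean ratio, genes whose probes disagree, and a list of common effectors. The pathway genes *TAP2*, *TAPBP* and *IFNL2*, and other genes outside this rule, were chosen after seeing their values. The values of 1 other pathway gene are not reported here.

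The 8 alternatives for single genes were the median of each array, quantile normalization, the 75th percentile over detected probes, E1A spike-in scaling (10 probes), normexp (offset 50, on median signals), the deposited log2 values, the mean of passing probes and subtraction of neighbouring spots. All 8 reuse the same arrays. The deposited log2 values carry the main scaling and nearly repeat the main ratios. For a gene with no further passing probe, the mean of passing probes is the main value itself. A sign kept under these alternatives therefore adds nothing for such a gene. For counts and medians, other filters, a 1.5-fold threshold and limma 3.58.1 (R 4.3.3) were added. limma, with Benjamini-Hochberg adjustment, was tested on simulated data. Analyses used Python 3.11.15, numpy 2.4.6, pandas 2.3.3 and scipy 1.17.1.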

Additional observations from a re-analysis of the deposited data

Results flagged for a closer look

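*IFIT2* was below control siRNA with siRNA #7 and above it with siRNA #8, and the log2 difference between the siRNAs was 1.46. *IFI35* went the other way, with a difference of -1.52. With 1 array per siRNA neither difference was tested. With normexp background correction they were 0.45 and -0.88. Its offset of 50, added to every spot signal, draws the ratios of dim probes toward 0.

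A dimmer *PML* probe that stands in no comparison read 0.162 for control siRNA, 0.179 for siRNA #7 and 0.351 for siRNA #8 as scaled intensity, and only siRNA #7 left it short of well above background. Its log2 ratio of siRNA #8 to control siRNA was 1.11 ± 0.46, beside 0.26 ± 0.16 on the brightest *PML* probe.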

How the results depend on the processing

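No paired analysis was possible because there was 1 array per condition. The count of genes past 2-fold, 1 with each siRNA, became 0 with both under median scaling and under normexp. The normexp offset shrinks the ratios of dim probes, so fewer genes could pass 2-fold there. Spike-in scaling gave 0 with siRNA #7 and 1 lower gene with siRNA #8. Without a filter on dim probes there were 4 (2 higher, 2 lower) and 6 (3 and 3). Subtracting neighbouring spots gave 0 and 2 (1 and 1), the 75th percentile over detected probes gave 2 higher with siRNA #8, and a 1.5-fold threshold gave 4 (4 and 0) and 11 (7 and 4). With spike-in scaling, which moved all genes by a like amount, the median log2 ratio with siRNA #7 and siRNA #8 was -0.24 and -0.20 over the 35 genes, -0.25 and -0.17 over sensors and adaptors, and -0.25 and -0.17 over effectors. The median of sensors and adaptors with siRNA #8 was -0.14 without a filter and with a filter on 2 arrays, both of which add *TLR3*. The median of the 35 genes with siRNA #8, 0.041 in the main setting, also changed sign under median scaling (-0.019), normexp (-0.031) and subtraction of neighbouring spots (-0.057). No error was estimated for a median over genes. A stricter filter on low signal removed no gene. The 1 array per condition limits every value, and dim probes add to this, the pooled spot-to-spot SD being 0.35 log2 units in the lowest and 0.10 in the highest range of signal with control siRNA.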
